A study of Homo sapiens with 100 samples.

Results

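The 43 genes described here encode the machinery with which the endoplasmic reticulum (ER) imports, folds, checks and exports secreted and membrane proteins, together with sensors of the unfolded protein response. They were listed by symbol for their known function, with earlier results of these data known, as were the further lists below. Shares of all genes set beside such lists are a description and no test of the lists. Each of the 43 genes matched 1 of the 78894 gene entries of the count table. By role they comprise 12 chaperones and co-chaperones, 7 disulfide isomerases and folding enzymes, 9 genes of ER-associated degradation, 4 sensors and transcription factors, and 11 genes of entry into the ER and of transport. All 43 passed the expression filter in every comparison below.

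Transcript 3′ ends were sequenced from cultures of TMD8, an established lymphoma line (diffuse large B cell, activated B cell type). There were 6 clones carrying an A428D substitution in the gene of Bruton's tyrosine kinase (BTK), the kinase that relays B cell receptor signals, and 5 wild-type clones. Each clone received, for 24 h, zelebrudomide, bexobrutideg, pomalidomide, venetoclax with each of those 3 compounds, venetoclax alone, or DMSO, which gave 88 libraries in 16 groups with 1 library per clone and condition. A further 12 untreated libraries, deposited as a set of their own, came from the same 11 clones and the parental line.

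Zelebrudomide and bexobrutideg are BTK degraders, of which zelebrudomide also recruits the IKZF1 and IKZF3 transcription factors to cereblon, as pomalidomide does. Venetoclax inhibits the survival protein BCL2. Each line is a single-cell clone, so a difference between the genotypes is one between 2 sets of clones, and no source used here gives the doses. The substitution is credited to BTK because the growth and design descriptions name that gene, although the sample titles put SF3B1 in front of it. Counts of 3′ ends cannot check the base change itself.

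The unfolded protein response begins at 3 ER membrane proteins, IRE1 (gene ERN1), ATF6 and PERK. Active IRE1 splices XBP1 mRNA so that it encodes a potent activator of chaperone, degradation and secretory genes, and cleaved ATF6 drives chaperone genes such as HSPA5. PERK slows translation through eIF2α and raises ATF4. In the B lineage, IRE1 and XBP1 are known for building the ER of plasma cells, and B cell receptor signalling can engage the same response.

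Library depth ran from 1477939 to 9391058 counted reads in the 24 h set and from 10403227 to 12504172 in the untreated set. Mitochondrial transcripts took 6.24% to 11.1% of counts. Over the 100 libraries the 6 B cell markers summed to 1816 to 3334 CPM, counts scaled to the size of the library, the 6 plasma cell markers to 138 to 451, the 5 T cell markers to 0 to 4.18, the 5 myeloid markers to 0 to 2.43 and the 6 fibroblast and endothelial markers to 0.517 to 33.0. No marker of these lists was at 0 in every library. In bulk RNA, fewer cells of a type and less RNA per cell cannot be told apart.

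The 3′ ends of 12 members lie within another annotated gene, among them HSP90B1, HYOU1, PDIA6, SYVN1 and DERL3, and no source used here gives the strand setting of the counting. Reads of these members and their neighbours cannot be told apart on that account. A further limit is that 7 members, including HSPA5 and XBP1, have a pseudogene named after them in the table. Spliced and unspliced XBP1 mRNA share their 3′ end and were counted together.

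Promoters are shown first because the members are known to share short response elements. RefSeq promoter sequences on GRCh38.p14, running from 250 bases before to 50 bases after a transcription start, were at hand for 38 of the 43 members. The ER stress element was searched on both strands as CCAAT, any 9 bases, CCACG. It occurred in 7 of the 38 members (18.4%), CALR, CANX, CRELD2, HSP90B1, HSPA5, PDIA6 and XBP1, against 0.0916% of the 27305 gene symbols in the table. Its second form, searched as ATTGG, any base, CCACG, occurred in HERPUD1, HYOU1 and SDF2L1 (7.89%), against 0.0696%. The core of the XBP1 response element, TGACGTGG, occurred in DNAJC10, HYOU1, SSR3, TXNDC11 and TXNDC5 (13.2%), against 0.927%. The members were listed for a response known to use these elements, so their higher share was fixed in advance and is no result of these data. They are also counted among the 27305 symbols.

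The 5 promoters below belong to members whose levels differed between groups in the results that follow, and they show both forms of the element. They are written 5′ to 3′ on the strand of the gene, with the matches in capitals (of the 9 free bases in the long form, none is capitalised). HSPA5 (chr9:125241294-125241593, minus strand) has 1 match, HERPUD1 (chr16:56931892-56932191, plus strand) has 1 match of the second form, and HSP90B1 (chr12:103930160-103930459, plus strand) has 2 matches on opposite strands. HYOU1 (chr11:119057156-119057455, minus strand) has 2 reversed matches of the second form, the first of which overlaps a TGACGTGG core. XBP1 (chr22:28800520-28800819, minus strand, 1 of its listed starts) has 1 match.
HSPA5: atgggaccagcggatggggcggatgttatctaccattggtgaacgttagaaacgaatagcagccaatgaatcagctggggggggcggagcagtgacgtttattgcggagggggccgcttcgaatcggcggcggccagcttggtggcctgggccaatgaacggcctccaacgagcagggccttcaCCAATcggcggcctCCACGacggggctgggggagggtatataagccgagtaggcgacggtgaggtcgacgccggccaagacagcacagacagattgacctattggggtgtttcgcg
HERPUD1: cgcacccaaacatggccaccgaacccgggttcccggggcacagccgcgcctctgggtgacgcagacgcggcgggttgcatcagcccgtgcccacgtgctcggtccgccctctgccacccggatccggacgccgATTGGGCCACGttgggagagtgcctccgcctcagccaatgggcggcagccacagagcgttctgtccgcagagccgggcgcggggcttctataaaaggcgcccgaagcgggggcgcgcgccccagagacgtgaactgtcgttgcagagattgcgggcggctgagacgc
HYOU1: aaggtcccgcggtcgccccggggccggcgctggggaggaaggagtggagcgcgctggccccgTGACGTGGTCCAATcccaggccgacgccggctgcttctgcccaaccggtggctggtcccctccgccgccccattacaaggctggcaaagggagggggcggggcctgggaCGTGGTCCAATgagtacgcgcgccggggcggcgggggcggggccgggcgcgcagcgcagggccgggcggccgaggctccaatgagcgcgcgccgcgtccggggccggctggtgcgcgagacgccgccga
HSP90B1: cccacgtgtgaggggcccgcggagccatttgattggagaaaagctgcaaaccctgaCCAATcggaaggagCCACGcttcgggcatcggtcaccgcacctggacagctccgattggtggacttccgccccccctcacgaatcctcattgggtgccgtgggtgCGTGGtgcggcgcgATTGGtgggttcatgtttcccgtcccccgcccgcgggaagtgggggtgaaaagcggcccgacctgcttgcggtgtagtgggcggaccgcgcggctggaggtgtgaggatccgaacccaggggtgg
XBP1: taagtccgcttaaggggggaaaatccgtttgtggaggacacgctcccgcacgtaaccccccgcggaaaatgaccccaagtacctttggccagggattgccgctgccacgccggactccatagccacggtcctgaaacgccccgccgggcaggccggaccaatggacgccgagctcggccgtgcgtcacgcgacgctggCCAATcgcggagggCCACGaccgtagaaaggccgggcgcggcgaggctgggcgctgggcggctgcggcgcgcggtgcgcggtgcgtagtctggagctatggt
A match describes the letters of a window and says nothing about binding of a factor.

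Under DMSO, 30 of the 43 genes were lower in A428D clones than in wild-type clones and none was higher. The comparison asked how the ER programme differs with the BTK genotype, and it used the 11 DMSO libraries, so that each clone entered once. Chaperones took the largest share, with 11 of 12 lower and a median log2 change of -0.78, and TXNDC11 was the single member with a value above 0. Over all 13415 genes tested, 3.86% were lower and 3.3% higher, with a median of 0.00, against a median of -0.57 over the members. Calls were made at an adjusted p below 0.05 with edgeR's quasi-likelihood test, with Benjamini-Hochberg adjustment over all genes tested, and changes are log2 fold changes ± SE.

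Among the chaperones, HSPA5, the ER Hsp70 also called BiP, had a lowest, median and highest level of 126, 150.1 and 222 CPM in the 6 A428D clones. The wild-type clones 1 to 5 had 225, 262, 269, 278 and 245 CPM. Every A428D clone was below every wild-type clone, although A428D clone 3 lay only just below the lowest of them, and the change was -0.69 ± 0.13 (adjusted p = 0.00685).

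HYOU1, an Hsp70-like exchange factor for HSPA5, stood at 16.1, 17.1 and 29.1 CPM (lowest, median, highest) in A428D clones, against 33.6, 39.0, 42.9, 43.2 and 43.5 CPM in the wild-type clones. Here A428D clone 1 was the high one, and the groups did not overlap (-1.06 ± 0.14, adjusted p = 0.00107). HSP90B1, the ER Hsp90 that folds Toll-like receptors and integrins, ran at 278, 348 and 442 CPM in A428D clones. Its wild-type levels were 632, 604, 634, 704 and 598 CPM, all above the highest A428D clone (-0.83 ± 0.12, adjusted p = 0.00132).

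Of the other chaperones, the secreted ER stress factor MANF fell by 0.84 ± 0.14 (adjusted p = 0.0043), SDF2L1, a cofactor of HSPA5, fell by 0.81 ± 0.13 (adjusted p = 0.00354), and the co-chaperones DNAJC3, DNAJC10 and DNAJB11 fell by 0.85 ± 0.17, 0.81 ± 0.17 and 0.74 ± 0.11. The lectin chaperones calnexin (CANX) and calreticulin (CALR), which bind glycoproteins, fell by 0.59 ± 0.08 and 0.48 ± 0.08, and CRELD2 by 0.49 ± 0.14. DNAJB9, a repressor of IRE1, had a change of -0.69 ± 0.20 and was not called (adjusted p = 0.0521).

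The folding enzymes showed 6 of 7 lower, with a median of -0.55. They were the disulfide isomerases PDIA4 (-0.69 ± 0.13), PDIA6 (-0.65 ± 0.09), TXNDC5 (-0.55 ± 0.14), P4HB (-0.54 ± 0.08) and PDIA3 (-0.47 ± 0.09), and the prolyl isomerase PPIB (-0.68 ± 0.09). TXNDC11, a thioredoxin-domain protein, had a change of 0.08 ± 0.13 (adjusted p = 0.741).

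In ER-associated degradation, which sends misfolded proteins to the proteasome, 6 of 9 genes were lower, with a median of -0.56. EDEM1, a lectin that passes misfolded glycoproteins to degradation, had 35.1, 46.9 and 87.5 CPM (lowest, median, highest) in A428D clones. Wild-type clones had 94.2, 89.5, 79.3, 116 and 77.8 CPM, so that A428D clone 3 overlapped them while the other 5 A428D clones lay below (-0.84 ± 0.21, adjusted p = 0.0329).

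DERL3, a channel component typical of secretory cells, fell by 0.72 ± 0.18, HERPUD1, an organiser of the degradation complex, by 0.57 ± 0.10, EDEM3 by 0.56 ± 0.13, DERL1 by 0.31 ± 0.09 and the ubiquitin ligase SYVN1 by 0.28 ± 0.08. Its partner SEL1L (-0.59 ± 0.22), DERL2 (-0.36 ± 0.13) and EDEM2 (-0.28 ± 0.11) were not called. EDEM1 and DERL3 were among 10 of the 30 called members that lost their call when some single clone was left out, with highest adjusted p of 0.0794 and 0.0734.

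Of the sensors, ERN1 had 11.01, 14.7 and 18.2 CPM (lowest, median, highest) in A428D clones, against 27.9, 25.3, 26.1, 30.5 and 28.0 CPM in wild-type clones. The groups were separate, with a change of -0.92 ± 0.13 (adjusted p = 0.0011), and the ER-resident transcription factor CREB3L2 was also lower (-0.59 ± 0.12). XBP1 levels were 55.6, 78.1 and 122 CPM in A428D clones, against 119.9, 119, 136, 159.7 and 145 CPM in wild-type clones. A428D clone 1 overlapped the wild-type clones, and the change of -0.69 ± 0.20 was not called (adjusted p = 0.06125, range 0.0171 to 0.13 when single clones were left out, 0.00781 by DESeq2). ATF6 had a change of -0.10 ± 0.08 (adjusted p = 0.456).

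Of the entry and transport genes, 5 of 11 were lower, with a median of -0.29. The lower ones were SEC24D, a coat component of export vesicles (-0.67 ± 0.15), SEC61A1, the pore of the translocon (-0.58 ± 0.09), SSR1 (-0.52 ± 0.09), SSR3 (-0.29 ± 0.08) and the retrieval receptor KDELR2 (-0.29 ± 0.07). The translocon subunits SEC61B and SEC61G, the signal peptidase subunits SEC11C, SPCS2 and SPCS3, and OSTC had changes of -0.37 to -0.10 and were not called.

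The A428D clones differed among themselves in depth of the decrease. Against the wild-type mean on log2(CPM + 1), the median over the 43 members was -0.33, -0.48, -0.24, -0.69, -0.72 and -0.85 in clones 1 to 6, so that clones 4 to 6 were lowest. Single wild-type clones lay between -0.10 and 0.13, and the median over all 14977 genes of the 24 h set was -0.01 to 0.01 in each of these 11 libraries. The number of members called ran from 21 to 34 when each clone in turn was left out. Plasma cell markers summed to 187 to 429 CPM in A428D clones, against 266 to 336 CPM in wild-type clones, with 0 of 5 tested markers called by edgeR, 0 by DESeq2 and 3 at an unadjusted p under 0.05, and their part in the result was not tested.

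**Figure D1:**
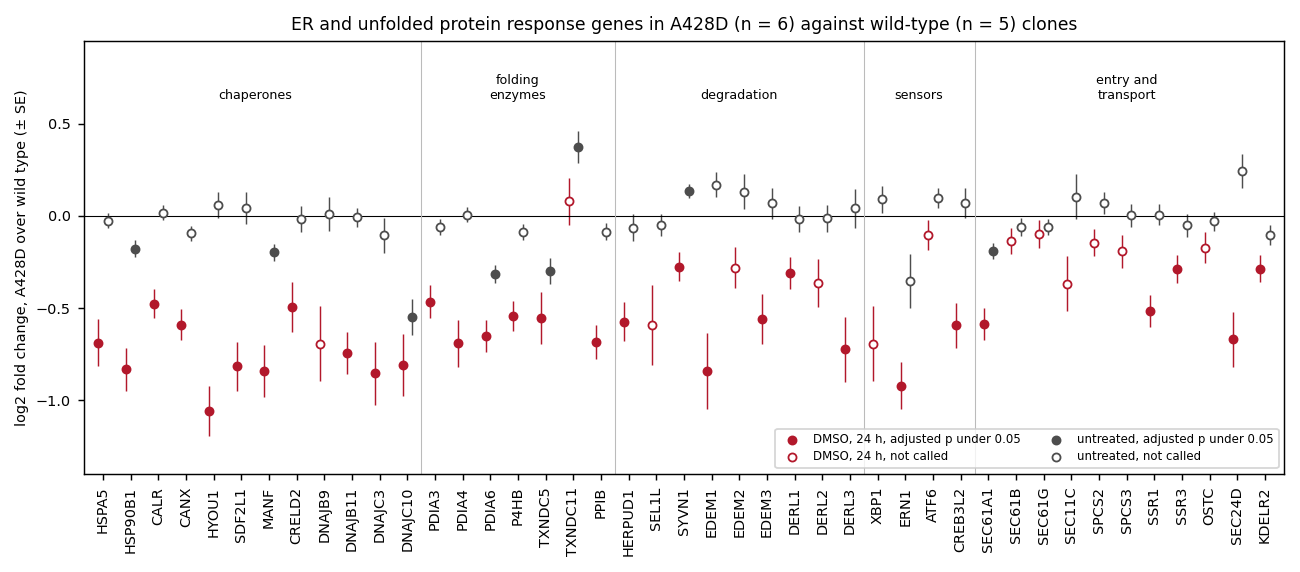
Log2 fold change of each of the 43 genes in A428D clones (n = 6) over wild-type clones (n = 5), with its SE, under DMSO (red) and without treatment (grey), ordered by role; filled points were called at an adjusted p under 0.05. Nearly all red points lie below 0, from -1.06 for HYOU1 to 0.08 for TXNDC11, whereas grey points run from -0.55 to 0.37.

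In untreated cultures fewer members differed between the same clones than under DMSO. Of the 43 genes, 6 were lower in A428D clones and 2 higher, against 2.68% lower and 3.26% higher over all 14609 genes tested, and the median was -0.02 over the members and 0.00 over all genes. DNAJC10, a disulfide reductase that assists degradation, had the largest change (-0.55 ± 0.10, adjusted p = 0.00542). PDIA6 (-0.31 ± 0.05), TXNDC5 (-0.30 ± 0.07), MANF (-0.20 ± 0.05), SEC61A1 (-0.19 ± 0.04) and HSP90B1 (-0.18 ± 0.04) were lower, and TXNDC11 (0.37 ± 0.09) and SYVN1 (0.14 ± 0.04) were higher. The count of 8 fell to 5 without wild-type clone 2 or 3 and to 3 without wild-type clone 4 or 5.

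Cell type markers also differed between the untreated genotypes, and their part in the result was not tested. Of the 6 plasma cell markers, JCHAIN (1.60 ± 0.39), CD38 (1.00 ± 0.20) and MZB1 (0.31 ± 0.06) were higher and TNFRSF17 (-0.405 ± 0.08) was lower in A428D clones, and JCHAIN lost its call without single clones (highest adjusted p 0.11). The list summed to 163 to 246 CPM in untreated A428D clones, against 157 to 181 CPM in wild-type clones. Of the 6 B cell markers CD79B was higher (0.33 ± 0.06), and that list summed to 1816 to 2285 CPM in A428D clones, against 1857 to 1988 CPM in wild-type clones. No marker of either list was at 0 in a group.

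HSPA5 stood at 175, 180.0 and 190.4 CPM (lowest, median, highest) in untreated A428D clones. The untreated wild-type clones had 186, 174, 184, 187 and 192 CPM, and the parental line 189.7 CPM. The groups overlapped fully and the change was -0.03 ± 0.04 (adjusted p = 0.777).

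ERN1 had 3.39, 4.18 and 5.77 CPM in untreated A428D clones, against 4.88, 6.71, 6.48, 4.36 and 5.04 CPM in wild-type clones, which overlapped (-0.35 ± 0.15, adjusted p = 0.183). XBP1 had 28.6, 35.0 and 40.3 CPM in untreated A428D clones, against 34.7, 33.9, 34.6, 32.3 and 31.8 CPM in wild-type clones (0.09 ± 0.07, adjusted p = 0.549). ATF6 had a change of 0.10 ± 0.06 (adjusted p = 0.344).

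HYOU1 levels were 27.9, 32.7 and 36.2 CPM in untreated A428D clones and 30.4, 33.0, 30.5, 31.2 and 29.5 CPM in wild-type clones. HSP90B1 levels were 394, 412 and 447 CPM in untreated A428D clones and 456, 470.3, 446, 495 and 493.1 CPM in wild-type clones. EDEM1 levels were 20.6, 21.9 and 25.5 CPM in untreated A428D clones and 20.9, 20.2, 18.7, 20.6 and 18.02 CPM in wild-type clones. All 3 genes overlapped between the genotypes without treatment, although HSP90B1 was called lower in A428D clones by edgeR (adjusted p = 0.0303). HYOU1 and EDEM1 were not called by that test (adjusted p = 0.688 and 0.1655).

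The genotype difference itself differed between DMSO and untreated cultures for 18 members, all with a lower value under DMSO, in a comparison added after the data had been seen. It was tested as the A428D change under DMSO minus that in untreated cultures over 22 libraries, where 1.01% of 15370 genes were lower and 0.8% higher, with medians of -0.48 over the members and 0.01 over all genes. HYOU1 (-1.10 ± 0.16, adjusted p = 0.00127), EDEM1 (-0.99 ± 0.23), SEC24D (-0.90 ± 0.18), SDF2L1 (-0.84 ± 0.17), DNAJB11 (-0.72 ± 0.13), PDIA4 (-0.68 ± 0.14), CREB3L2 (-0.65 ± 0.16), HSPA5 (-0.65 ± 0.14) and HSP90B1 (-0.64 ± 0.13) were among them, as were MANF (-0.63 ± 0.15), EDEM3 (-0.61 ± 0.16) and PPIB (-0.58 ± 0.11). XBP1 (-0.77 ± 0.24, adjusted p = 0.101) was called once the clone was a block (adjusted p = 0.0433), whereas ERN1 (-0.55 ± 0.20, adjusted p = 0.152) and ATF6 (-0.19 ± 0.10, adjusted p = 0.326) were not.

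The size of this set depended on single clones: 4 members were called without wild-type clone 4, 5 without wild-type clone 3 or 5 or A428D clone 5, 7 without A428D clone 6, 10 without A428D clone 4 or wild-type clone 2, and 11 without wild-type clone 1. Of the 18 members, 15 lost their call when some single clone was left out, and HYOU1, DNAJB11 and PPIB kept theirs. Of the 6 plasma cell markers MZB1 was lower in the same comparison (-0.63 ± 0.13, adjusted p = 0.0173, at most 0.0656 without single clones), and its part was not tested. The untreated and DMSO libraries were deposited separately and differ in depth, so that exposure to DMSO and the set cannot be told apart. Side by side, with no test and on separate scalings, ERN1 averaged 14.6 CPM under DMSO and 4.33 CPM untreated in A428D clones, and 27.5 and 5.50 CPM in wild-type clones. XBP1 averaged 84.4 CPM under DMSO and 35.7 CPM untreated in A428D clones, and 136 and 33.5 CPM in wild-type clones. The log2 ratio of DMSO over untreated means was above 0 for 17 members in A428D clones and 29 in wild-type clones. No share over all genes is given for this ratio, so these counts are not a result about the members.

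Of 47 further ER and unfolded protein response genes, 17 were lower and 1 higher in A428D clones under DMSO, with a median of -0.20. Over all genes 3.86% were lower and 3.3% higher. The calcium-binding protein NUCB2 (-0.95 ± 0.22), the prolyl isomerase FKBP11 (-0.71 ± 0.12) and the oxidase ERO1B (-0.62 ± 0.12) were lower. The higher one was BLOC1S1 (0.58 ± 0.08, adjusted p = 0.0015), whose mRNA is known as a substrate that active IRE1 cleaves. Untreated, 1 of the 47 was higher, ERO1B (0.44 ± 0.12), and 1 lower, LMAN1 (-0.19 ± 0.05), against 3.26% and 2.68% of all genes.

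Of 12 genes of the PERK and integrated stress response arm, 6 were lower under DMSO and none higher, with 7 at an unadjusted p under 0.05. The shares of all genes were 3.86% and 3.3%. The glutathione-degrading enzyme CHAC1 (-1.79 ± 0.31), SESN2 (-1.52 ± 0.21), asparagine synthetase ASNS (-0.70 ± 0.15) and ATF4 itself (-0.68 ± 0.13) were lower. In untreated cultures PPP1R15A, the phosphatase subunit that reverses PERK signalling, was the single gene called. It was higher (0.76 ± 0.10), as were 3.26% of all genes.

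In the fit with no term for the clone, zelebrudomide moved few members in either genotype, and more were called with such a term. For each treatment the change against DMSO was tested over all 88 libraries, with 14977 genes. In A428D clones 1 member rose and none fell, against 1.37% and 0.661% of all genes. All clones received every condition, and with the clone as a block in the fit 5 rose and 2 fell. Here and below, the shares of all genes come from the fit without that block. No such share is given here for counts with the block, so whether those counts exceed the share of all genes cannot be read from them. The member called without the block was the isomerase PDIA6, at 242, 282 and 321 CPM (lowest, median, highest), against 178, 211 and 239 CPM under DMSO. The groups did not overlap and all 6 clones rose (0.42 ± 0.07, adjusted p = 7.13e-05). HSPA5 (0.22 ± 0.13), XBP1 (0.32 ± 0.17), ERN1 (-0.26 ± 0.17) and ATF6 (0.05 ± 0.08) were not called against DMSO in A428D clones, although XBP1 was with the block (adjusted p = 0.00723). EDEM1 stood at 42.6, 54.0 and 91.5 CPM in A428D clones given zelebrudomide and HERPUD1 at 104, 127 and 151 CPM.

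In wild-type clones zelebrudomide lowered EDEM1 most. There 3 members fell and 1 rose with zelebrudomide, against 3.26% of all genes lower and 3.16% higher, and the members' median was -0.04. With the clone block 9 fell and 3 rose. Mitochondrial transcripts took 8.72% to 10.48% of counts in these libraries, against 7.3% to 9.07% with DMSO, with the higher share under zelebrudomide in 5 of 5 clones. Of the 6 B cell markers PAX5 fell (-0.545 ± 0.13), and the part of either in the result was not tested.

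EDEM1 had 43.2, 41.5, 37.5, 57.8 and 39.8 CPM in wild-type clones 1 to 5 given zelebrudomide, against the DMSO levels above, which were higher in every clone (-1.05 ± 0.19, adjusted p = 5.66e-05). HERPUD1 had 121, 105, 99.7, 133 and 109.5 CPM with zelebrudomide, against 162, 156, 144, 184 and 157 CPM with DMSO. It was lower in 5 of 5 clones, without overlap (-0.50 ± 0.11, adjusted p = 0.000809).

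DERL3 went the other way, with 27.8, 27.5, 31.6, 43.5 and 30.1 CPM under zelebrudomide, against 18.8, 18.9, 19.1, 25.2 and 24.5 CPM under DMSO (0.60 ± 0.17, adjusted p = 0.0215). The SYVN1 change was -0.26 ± 0.07 (adjusted p = 0.0149). DERL3 and SYVN1 lost their calls without single clones, with highest adjusted p of 0.0788 and 0.103, and 2 members were left without wild-type clone 1, 2 or 4. HSPA5 (-0.16 ± 0.14), XBP1 (0.38 ± 0.18), ERN1 (-0.44 ± 0.18) and ATF6 (0.17 ± 0.09) were not called. With the clone block XBP1 (adjusted p = 0.00116) and ERN1 (adjusted p = 0.000976) were.

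The paired change with zelebrudomide was positive in 6 of 6 A428D clones and negative in 5 of 5 wild-type clones for EDEM1 and HERPUD1 each. Neither rise in A428D clones was called in the fit without the clone block, where PDIA6 was the only member called. The change in A428D clones minus that in wild-type clones was 1.24 ± 0.26 for EDEM1 (adjusted p = 0.0033) and 0.745 ± 0.145 for HERPUD1 (adjusted p = 0.00119). These were the 2 members that differed, both upward, against 0.821% of all genes upward and 0.207% downward. With the clone block 9 differed upward and 2 downward.

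With bexobrutideg, a degrader that spares the IKZF factors, no member and no other gene was called in A428D clones, 0% in each direction. This fit had no clone block, and 304 of 14977 genes had an unadjusted p under 0.05 by edgeR. A lack of calls does not show a lack of change. By edgeR 0 of the 43 members had an unadjusted p under 0.05, and DESeq2 also called 0. HSPA5 (0.11 ± 0.13), XBP1 (0.12 ± 0.17), ERN1 (0.12 ± 0.17) and ATF6 (0.02 ± 0.08) each had an adjusted p of 1. EDEM1 levels with bexobrutideg were 42.6, 58.1 and 100.0 CPM and HERPUD1 levels 90.1, 102 and 138 CPM, overlapping those under DMSO.

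In wild-type clones bexobrutideg moved EDEM1, HERPUD1 and DERL3. There 2 members fell and 1 rose, against 1.64% and 0.754% of all genes, with a median of -0.08 (12 fell and 1 rose with the clone block). The mitochondrial share was 8.24% to 9.82% with bexobrutideg, also above that with DMSO in 5 of 5 clones, and its part was not tested. EDEM1 had 45.4, 36.8, 36.5, 52.1 and 47.2 CPM with bexobrutideg, lower than with DMSO in every clone (-1.07 ± 0.19, adjusted p = 0.000132). HERPUD1 had 98.8, 86.9, 91.5, 108 and 91.0 CPM, again below every DMSO level (-0.75 ± 0.11, adjusted p = 1.08e-06).

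DERL3 had 30.1, 29.7, 28.2, 47.4 and 36.4 CPM with bexobrutideg, above every DMSO level (0.69 ± 0.17, adjusted p = 0.0122, at most 0.074 without single clones). HSPA5 (-0.24 ± 0.14), XBP1 (0.18 ± 0.18), ERN1 (-0.07 ± 0.17) and ATF6 (0.05 ± 0.09) were not called, HSPA5 being called with the block (adjusted p = 0.0338).

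The response to bexobrutideg differed between the genotypes for EDEM1 (1.38 ± 0.26, adjusted p = 0.000928) and HERPUD1 (0.76 ± 0.15, adjusted p = 0.00114). These were the only 2 members called, against 0.494% of genes upward and 0.12% downward (8 upward and 1 downward with the clone block).

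Of the 12 PERK arm genes, 0 were called in A428D clones by edgeR or DESeq2 with each degrader, with 1 at an unadjusted p under 0.05 for zelebrudomide and 2 for bexobrutideg. In wild-type clones 8 of them fell with zelebrudomide (median -0.87) and 8 with bexobrutideg (median -0.85), and none rose. Of all genes 3.26% and 1.64% fell. CHAC1 changed by -1.79 ± 0.44 and -2.04 ± 0.44, and SESN2 by -1.07 ± 0.26 and -1.31 ± 0.27, in that order of drugs. The response differed between the genotypes for 6 and 7 of the 12, all upward, against 0.821% and 0.494% of all genes upward. Among them was CHAC1 (2.64 ± 0.61 and 2.50 ± 0.63). Of the 47 further ER genes, 1 was called in A428D clones, with zelebrudomide, the site-1 protease gene MBTPS1 (-0.44 ± 0.11), against 0.661% of all genes lower. In wild-type clones none was called by edgeR with either drug, with 6 and 4 at an unadjusted p under 0.05 and 0 and 1 called by DESeq2.

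Zelebrudomide and bexobrutideg were set against each other directly in wild-type clones, 1 of 2 pairs of compounds compared, with p-values adjusted over all genes within a pair. No member was called by edgeR, against 0.861% of all genes higher and 0.387% lower with zelebrudomide, while 5 had an unadjusted p under 0.05 and DESeq2 called 1. The difference, zelebrudomide minus bexobrutideg, was 0.01 ± 0.20 for EDEM1, and 2 SE either side reached from -0.38 to 0.41. It was 0.26 ± 0.11 for HERPUD1, with 2 SE reaching from 0.04 to 0.47. Over the 43 members the differences ran from -0.37 to 0.28, with 2 SE reaching at most from -0.72 to 0.57. With the clone block 3 members were higher and 1 lower, namely PDIA6, TXNDC11 and HERPUD1 higher and ERN1 lower. Whether the doses matched is not known from the sources used here.

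Against pomalidomide the zelebrudomide levels did differ. In wild-type clones 6 members were lower and 1 higher with zelebrudomide, against 4.61% and 2.79% of all genes (12 and 4 with the clone block). HERPUD1 (-1.05 ± 0.11, adjusted p = 5.1e-12), EDEM1 (-0.89 ± 0.19), HSPA5 (-0.48 ± 0.14), HYOU1 (-0.47 ± 0.14), TXNDC5 (-0.46 ± 0.14) and PDIA6 (-0.32 ± 0.08) were lower, and DERL3 was higher (0.85 ± 0.18). The count of 7 fell to 4 without wild-type clone 2 or 4 and to 3 without clone 5. The calls of HSPA5, HYOU1, TXNDC5 and PDIA6 were lost when single clones were left out, with highest adjusted p of 0.0632 to 0.216.

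Pomalidomide, which turns cereblon against IKZF1 and IKZF3, raised HERPUD1 and PDIA6 and lowered ERN1 in both genotypes. In A428D clones 6 members rose and 3 fell, against 5.12% and 3.53% of all genes, with a median of 0.12 (15 and 4 with the clone block). PDIA6 had 282, 323 and 362 CPM (lowest, median, highest), above every DMSO library (0.62 ± 0.07, adjusted p = 4.54e-10). SDF2L1 (0.54 ± 0.17), HSPA5 (0.41 ± 0.13), P4HB (0.36 ± 0.10), HERPUD1 (0.33 ± 0.10) and CALR (0.33 ± 0.09) also rose, in 6 of 6 clones each.

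SEC11C (-0.54 ± 0.15), ERN1 (-0.53 ± 0.18) and SYVN1 (-0.27 ± 0.07) fell in 6 of 6 A428D clones. Calls other than those of PDIA6 and SYVN1 were lost when single clones were left out, and 5 members were left without A428D clone 4 or 6. XBP1 (0.44 ± 0.17, adjusted p = 0.0909, 1.18e-05 with the block) and ATF6 (0.04 ± 0.08) were not called.

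In wild-type clones 2 members rose and 4 fell with pomalidomide, against 5.37% and 4.57% of all genes, with a median of 0.06. HERPUD1 had 242, 225, 224, 254 and 236 CPM with pomalidomide, above every DMSO library (0.56 ± 0.11, adjusted p = 5.92e-05), and PDIA6 had 432, 429, 397, 446 and 451 CPM, against 286, 317, 351, 371 and 322 CPM with DMSO (0.39 ± 0.08, adjusted p = 0.000296). Neither gene overlapped between pomalidomide and DMSO.

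ERN1 (-0.63 ± 0.17), the signal peptidase subunit SEC11C (-0.54 ± 0.17), CREB3L2 (-0.46 ± 0.14) and SYVN1 (-0.41 ± 0.07) fell. ERN1, SEC11C and CREB3L2 lost their calls without single clones (highest adjusted p 0.0609, 0.135 and 0.105), and 3 members were left without wild-type clone 5. HSPA5 was above its DMSO level in 5 of 5 clones (0.32 ± 0.14), which was not called (adjusted p = 0.168) except with the clone block (adjusted p = 0.00088). With that block 9 members rose and 6 fell. XBP1 (0.20 ± 0.18) and ATF6 (0.14 ± 0.09) were not called in either fit.

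B lineage markers moved beside these genes, and their part was not tested. The surface receptor CD22 fell in A428D clones (-0.52 ± 0.13) and in wild-type clones (-0.65 ± 0.14), the single B cell marker of 6 called in each. The list summed to 2364 to 3139 CPM with pomalidomide in A428D clones, against 2796 to 3334 CPM with DMSO, and to 2516 to 2759 CPM in wild-type clones, against 2897 to 3148 CPM with DMSO, without overlap in wild-type clones. Of the 6 plasma cell markers CD38 fell in wild-type clones (-1.08 ± 0.33, at most 0.155 in adjusted p without single clones), where the list summed to 208 to 259 CPM with pomalidomide, against 266 to 336 CPM with DMSO.

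The response to pomalidomide was not found to differ between the genotypes for any member by edgeR or DESeq2, with 1 at an unadjusted p under 0.05 and 0% of all genes called upward or downward. This fit too had no clone block, and 256 of 14977 genes had an unadjusted p under 0.05 by edgeR. Of the further ER genes, CREB3L1 rose by 1.61 ± 0.38 in A428D clones and by 1.72 ± 0.41 in wild-type clones. MBTPS1, whose product cleaves ATF6, fell by 0.79 ± 0.11 in A428D clones and by 1.07 ± 0.13 in wild-type clones. In the PERK arm ATF3 rose in A428D clones (0.50 ± 0.13) and in wild-type clones (0.41 ± 0.14), where EIF2AK3, the PERK gene, fell (-0.48 ± 0.15).

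**Figure D2:**
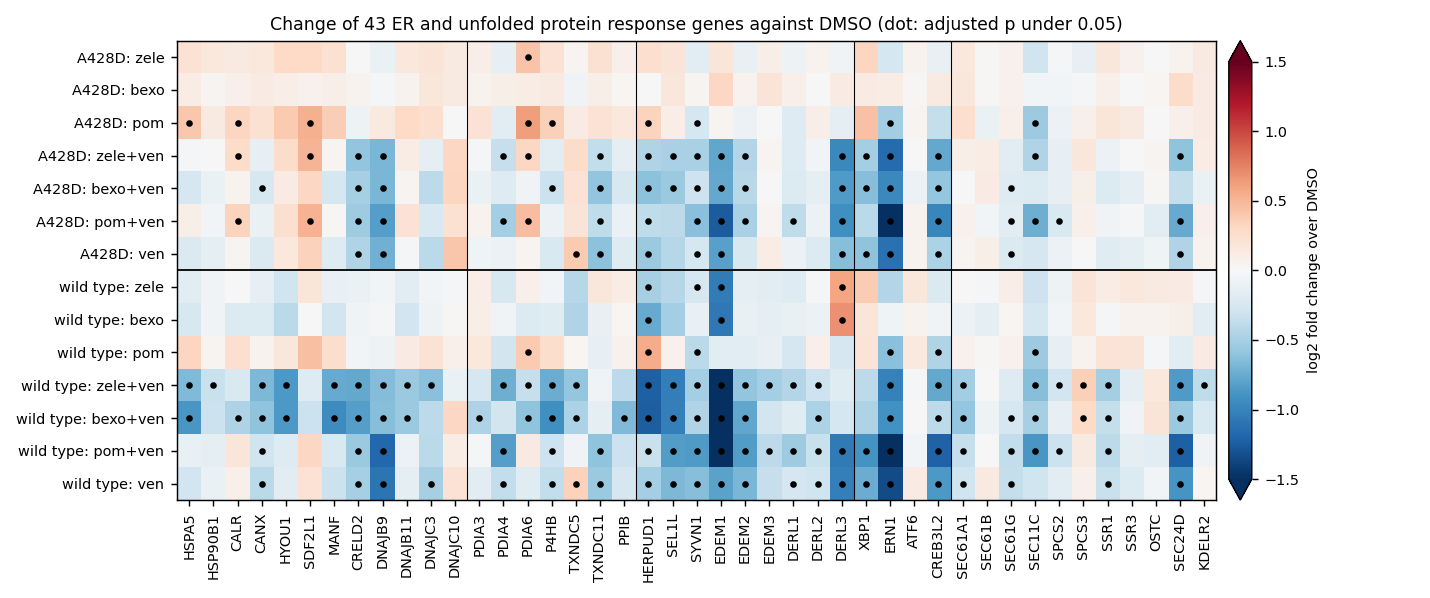
Log2 fold change over DMSO of each of the 43 genes (columns, by role) for each treatment (lines) in A428D and wild-type clones; colours are clipped at 1.5 and black dots mark an adjusted p under 0.05. Bexobrutideg has no dot in A428D clones and 3 in wild-type clones, while the lines with venetoclax hold 13 to 30 dots each.

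Venetoclax lowered members of every role, with the sensor gene ERN1 in the lead. In A428D clones 12 fell and 1 rose, against 6.96% and 10.4% of all genes, with a median of -0.19, and 20 fell and 3 rose with the clone block. In wild-type clones 22 of 43 members fell and 1 rose, against 14.6% and 17.6% of all genes, with medians of -0.30 over the members and -0.01 over all genes. By role, 8 of 9 degradation genes and 3 of 4 sensors fell, with medians of -0.64 and -0.80, against 4 of 12 chaperones with a median of -0.23.

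B cell markers were lower beside them, and their part was not tested. CD79A, a subunit of the B cell receptor, fell in A428D clones (-0.495 ± 0.16) and in wild-type clones (-0.66 ± 0.17), where CD79B fell too (-0.42 ± 0.15). The A428D call of CD79A and the call of CD79B were lost without single clones. The medians of the 6 markers were -0.15 in A428D clones and -0.24 in wild-type clones. They summed to 2388 to 2803 CPM with venetoclax in A428D clones, against 2796 to 3334 CPM with DMSO, and to 2264 to 2581 CPM in wild-type clones, against 2897 to 3148 CPM with DMSO. The wild-type sums did not overlap. Of the 6 plasma cell markers CD38 fell in wild-type clones (-1.71 ± 0.36), where the list summed to 234 to 302 CPM with venetoclax, against 266 to 336 CPM with DMSO.

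ERN1 had the largest decrease in both genotypes. Its lowest, median and highest level with venetoclax was 4.88, 5.97 and 9.31 CPM in A428D clones (-1.12 ± 0.18, adjusted p = 1.22e-05). Wild-type clones with venetoclax had 10.6, 8.26, 11.01, 11.9 and 12.4 CPM (-1.34 ± 0.18, adjusted p = 2.55e-08). No venetoclax library reached the DMSO libraries of its genotype.

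XBP1 with venetoclax stood at 41.5, 56.2 and 67.1 CPM in A428D clones, which overlapped DMSO (-0.61 ± 0.17, adjusted p = 0.00746). In wild-type clones it stood at 69.1, 78.7, 82.9, 87.0 and 87.1 CPM, below every DMSO library (-0.75 ± 0.18, adjusted p = 0.000871). It was lower in 6 of 6 A428D clones and 5 of 5 wild-type clones.

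Other decreases in A428D clones were EDEM1 (-0.81 ± 0.18), DNAJB9 (-0.72 ± 0.20), TXNDC11 (-0.61 ± 0.12), HERPUD1 (-0.56 ± 0.10), SYVN1 (-0.26 ± 0.07) and SEC61G (-0.22 ± 0.07), each in 6 of 6 clones.

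In wild-type clones DNAJB9 had 5.88, 8.12, 6.87, 9.24 and 8.58 CPM with venetoclax, against 14.1, 14.7, 15.03, 21.0 and 17.9 CPM with DMSO, without overlap (-1.09 ± 0.20). DERL3 had 9.85, 9.94, 11.3, 10.7 and 10.4 CPM, below every DMSO library (-1.03 ± 0.19). SEC24D (-0.88 ± 0.17), CREB3L2 (-0.86 ± 0.14), EDEM1 (-0.80 ± 0.19), EDEM2 (-0.68 ± 0.13), SEL1L (-0.67 ± 0.18) and SYVN1 (-0.64 ± 0.07) fell in 5 of 5 clones.

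TXNDC5, a disulfide isomerase of secretory cells, was the member that rose, by 0.39 ± 0.13 in A428D clones and 0.34 ± 0.13 in wild-type clones. Its levels were 10.1, 14.97, 15.2, 15.8 and 15.2 CPM with venetoclax in wild-type clones, against 10.4, 12.8, 13.3, 10.7 and 9.03 CPM with DMSO. Wild-type clone 1 was the low one and lay within the DMSO range. The A428D call was lost without single clones (highest adjusted p 0.203). HSPA5 had changes of -0.21 ± 0.13 in A428D clones (adjusted p = 0.276, 0.0344 with the clone block) and -0.29 ± 0.14 in wild-type clones, where the adjusted p was 0.109 and 0.00135 with the clone block.

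ATF6 had changes of 0.06 ± 0.08 in A428D clones and 0.12 ± 0.09 in wild-type clones. Between the genotypes the response to venetoclax was not found to differ for any member by edgeR or DESeq2, with 5 at an unadjusted p under 0.05, 0% of all genes called in each direction and 1 member called, upward, with the clone block.

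Of the 47 further ER genes, 4 fell and 1 rose in A428D clones, against 6.96% and 10.4% of all genes. In wild-type clones 17 fell and 2 rose, against 14.6% and 17.6% of all genes. NUCB2 fell by 1.04 ± 0.24 in A428D clones and by 0.98 ± 0.23 in wild-type clones. In the PERK arm the stress factor DDIT3, known as CHOP, fell by 1.38 ± 0.20 in A428D clones and by 0.93 ± 0.20 in wild-type clones, and EIF2AK3 fell by 0.56 ± 0.15 and 0.83 ± 0.15. EIF2S1, which encodes eIF2α, rose by 0.56 ± 0.10 in A428D clones and by 0.70 ± 0.10 in wild-type clones.

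With zelebrudomide and venetoclax together, 15 of 43 members fell and 3 rose in A428D clones, against 11.6% and 14.7% of all genes, with a median of -0.12 (18 and 8 with the clone block). In wild-type clones 29 fell and 1 rose, against 11.2% and 12.2% of all genes, and the median was -0.51. EDEM1 had 26.8, 28.0 and 39.5 CPM (lowest, median, highest) in A428D clones (-0.78 ± 0.18, adjusted p = 0.000695). Wild-type clones had 21.3, 19.8, 17.2, 21.5 and 20.1 CPM (-2.18 ± 0.21, adjusted p = 5.89e-13), so that under the combination every A428D clone was above every wild-type clone.

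The wild-type libraries of this combination stood apart in depth and mitochondrial share. The A428D libraries held 6271638 to 7307444 reads with the combination, against 6854033 to 8082433 with DMSO, and the mitochondrial share was 6.83% to 9.12%, against 6.51% to 8.87% with DMSO, higher in 4 of 6 clones. The wild-type libraries held 3151199 to 6125132 reads, against 6860950 to 9391058 with DMSO, and the share was 9.41% to 10.3%, against 7.3% to 9.07%, higher in 5 of 5 clones and without overlap. Of the 6 B cell markers CD79A (-0.55 ± 0.16), MS4A1 (-0.42 ± 0.14) and CD79B (-0.42 ± 0.14) fell in A428D clones and PAX5 (-0.715 ± 0.13) in wild-type clones, with medians of -0.37 and -0.33. The list summed to 2053 to 2535 CPM in A428D clones and 2172 to 2740 CPM in wild-type clones with the combination, below every DMSO library of the genotype. CD38, of the 6 plasma cell markers, fell in A428D clones (-1.42 ± 0.32). The part of these measures in the result was not tested.

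HYOU1 had 17.1, 23.1 and 29.1 CPM in A428D clones with the combination, within the DMSO range of those clones. In wild-type clones it had 19.6, 22.03, 23.1, 23.4 and 23.5 CPM, below every DMSO library (-0.86 ± 0.15, adjusted p = 1.44e-05). In A428D clones ERN1 (-1.16 ± 0.19), DERL3 (-0.96 ± 0.19), CREB3L2 (-0.77 ± 0.13), DNAJB9 (-0.68 ± 0.20) and CRELD2 (-0.59 ± 0.13) fell and SDF2L1 rose (0.51 ± 0.17), in 6 of 6 clones each. HERPUD1 (-1.23 ± 0.11), SEL1L (-1.03 ± 0.19), ERN1 (-1.02 ± 0.19), SEC24D (-0.85 ± 0.18), CREB3L2 (-0.77 ± 0.14), CRELD2 (-0.76 ± 0.14), MANF (-0.76 ± 0.15) and P4HB (-0.74 ± 0.11) fell in 5 of 5 wild-type clones.

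The response to this combination differed between the genotypes for 14 members, all upward, against 1.78% of genes upward and 1.56% downward, with a median of 0.27. They included 6 chaperones, 3 folding enzymes, 2 degradation genes, no sensor and 3 entry and transport genes. After EDEM1 (1.40 ± 0.28) came HYOU1 (1.14 ± 0.21, adjusted p = 0.000243), TXNDC5 (0.86 ± 0.20), MANF (0.81 ± 0.21), HERPUD1 (0.78 ± 0.15), DNAJB11 (0.66 ± 0.16), PDIA6 (0.66 ± 0.11, adjusted p = 4.92e-05) and HSPA5 (0.65 ± 0.20). The count was 7 without wild-type clone 2 and 9 without A428D clone 4, and with the clone block 20 differed upward and 2 downward. MANF and HSPA5 lost their calls without single clones (highest adjusted p 0.0666 and 0.117). Each difference in response subtracts the same DMSO libraries that gave the genotype result under DMSO, so the 2 results are not independent. The members' median A428D minus wild-type difference in level was -0.58 with DMSO and -0.10 with this combination.

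With bexobrutideg and venetoclax, 15 members fell and none rose in A428D clones, against 6.96% and 9.12% of all genes (23 and 3 with the clone block, and 9 called without A428D clone 3). They were led by ERN1 (-0.96 ± 0.18), DERL3 (-0.84 ± 0.19), EDEM1 (-0.77 ± 0.18), XBP1 (-0.63 ± 0.17) and HERPUD1 (-0.61 ± 0.10).

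In wild-type clones 26 members fell and 1 rose with bexobrutideg and venetoclax, against 9.57% and 11.9% of all genes, with a median of -0.46. Wild-type clone 3 of this group was the shallowest library and also stood apart in composition. Its TMM scaling factor was 1.31, against 1.08 in the DMSO library of that clone. Its mitochondrial share was 6.24%, against 8.5% in that DMSO library. HSPA5 had 105, 136 and 150.4 CPM (lowest, median, highest) in A428D clones and 148, 175, 81.6, 152 and 136 CPM in wild-type clones, where that library was also the low one (-0.87 ± 0.14, adjusted p = 3.26e-06). Without libraries under 3000000 reads 32 members fell and none rose, and with only these 2 groups in the fit 16 fell and none rose.

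Wild-type libraries of this combination held 1477939 to 6112274 reads, fewer than each of their DMSO libraries. Their mitochondrial share was 6.24% to 9.96%, against 7.3% to 9.07% with DMSO, higher in 4 of 5 clones. In A428D clones it was 6.61% to 9.22%, against 6.51% to 8.87% with DMSO, higher in 5 of 6 clones. The B cell marker CD79A fell in A428D clones (-0.50 ± 0.16) and in wild-type clones (-0.64 ± 0.17), where PAX5 fell too (-0.34 ± 0.13), and the plasma cell marker CD38 fell in A428D clones (-0.99 ± 0.31). The A428D calls of CD79A and CD38 and the call of PAX5 were lost without single clones. The 6 B cell markers summed to 2320 to 2758 CPM in A428D clones and 2391 to 2838 CPM in wild-type clones, below every DMSO library of the genotype. The part of depth, scaling, mitochondrial share and markers was not tested.

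EDEM1 (-1.78 ± 0.21), HERPUD1 (-1.24 ± 0.11), SEL1L (-1.02 ± 0.19), MANF (-0.95 ± 0.15), P4HB (-0.93 ± 0.11), ERN1 (-0.91 ± 0.19), HYOU1 (-0.86 ± 0.15), CRELD2 (-0.83 ± 0.14) and EDEM2 (-0.77 ± 0.14) fell in 5 of 5 wild-type clones.

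The response differed between the genotypes for 9 members, all upward, against 1.01% upward and 0.868% downward, with a median of 0.22. They were led by EDEM1 (1.01 ± 0.27), HYOU1 (0.98 ± 0.21, adjusted p = 0.00299), TXNDC5 (0.69 ± 0.20), HERPUD1 (0.62 ± 0.15), P4HB (0.60 ± 0.15), DNAJB11 (0.59 ± 0.16), SEC61A1 (0.58 ± 0.15) and PDIA6 (0.55 ± 0.11). This count was 0 with only the 4 groups in the fit, 3 without A428D clone 4, 5 without A428D clone 2 or 6 or wild-type clone 4, and 16 upward and 2 downward with the clone block. Among the named genes, HYOU1 and PDIA6 kept their calls whichever clone was left out.

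With pomalidomide and venetoclax, 16 members fell and 3 rose in A428D clones, against 14.1% and 16.5% of all genes, with a median of -0.10 (18 and 6 with the clone block). In wild-type clones 24 fell and none rose, against 18.1% and 18.8% of all genes, with a median of -0.33. All 9 degradation genes fell there, against 3 of 12 chaperones. ERN1 had 3.93, 4.83 and 6.34 CPM (lowest, median, highest) in A428D clones (-1.54 ± 0.19, adjusted p = 1.21e-09) and 6.94, 6.79, 5.87, 8.74 and 4.82 CPM in wild-type clones (-2.05 ± 0.20, adjusted p = 6.25e-14). These levels were below every DMSO library of the same genotype.

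Markers of the B lineage fell in both genotypes with this combination, and their part in the result was not tested. Of the 6 plasma cell markers 3 fell in each genotype, with medians of -0.62 in A428D clones and -0.57 in wild-type clones: CD38 (-1.33 ± 0.32 and -1.65 ± 0.36), the receptor gene TNFRSF17 (-1.5 ± 0.36 and -1.52 ± 0.36) and the plasma cell factor PRDM1 (-0.40 ± 0.14 and -0.51 ± 0.16). They summed to 138 to 308 CPM in A428D clones, against 187 to 429 CPM with DMSO, and to 191 to 231 CPM in wild-type clones, against 266 to 336 CPM with DMSO. Of the 6 B cell markers CD22, MS4A1 and PAX5 fell in each genotype, with medians of -0.33 in A428D clones and -0.39 in wild-type clones. Their sums of 2167 to 2755 CPM in A428D clones and 2191 to 2473 CPM in wild-type clones were below every DMSO library of the genotype. The mitochondrial share in wild-type clones was 8.88% to 10.3%, against 7.3% to 9.07% with DMSO, higher in 5 of 5 clones.

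EDEM1 fell by 1.25 ± 0.18 in A428D clones and by 1.55 ± 0.20 in wild-type clones, CREB3L2 by 0.98 ± 0.13 and 1.21 ± 0.14, SEC24D by 0.75 ± 0.17 and 1.22 ± 0.17, and DNAJB9 by 0.83 ± 0.20 and 1.18 ± 0.20. SDF2L1 (0.52 ± 0.17), PDIA6 (0.47) and CALR (0.33) rose in A428D clones. The response was not found to differ between the genotypes for any member by edgeR or DESeq2, with 6 at an unadjusted p under 0.05, 0.00668% of all genes upward and 0% downward. With the clone block 3 differed upward.

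**Figure D3:**
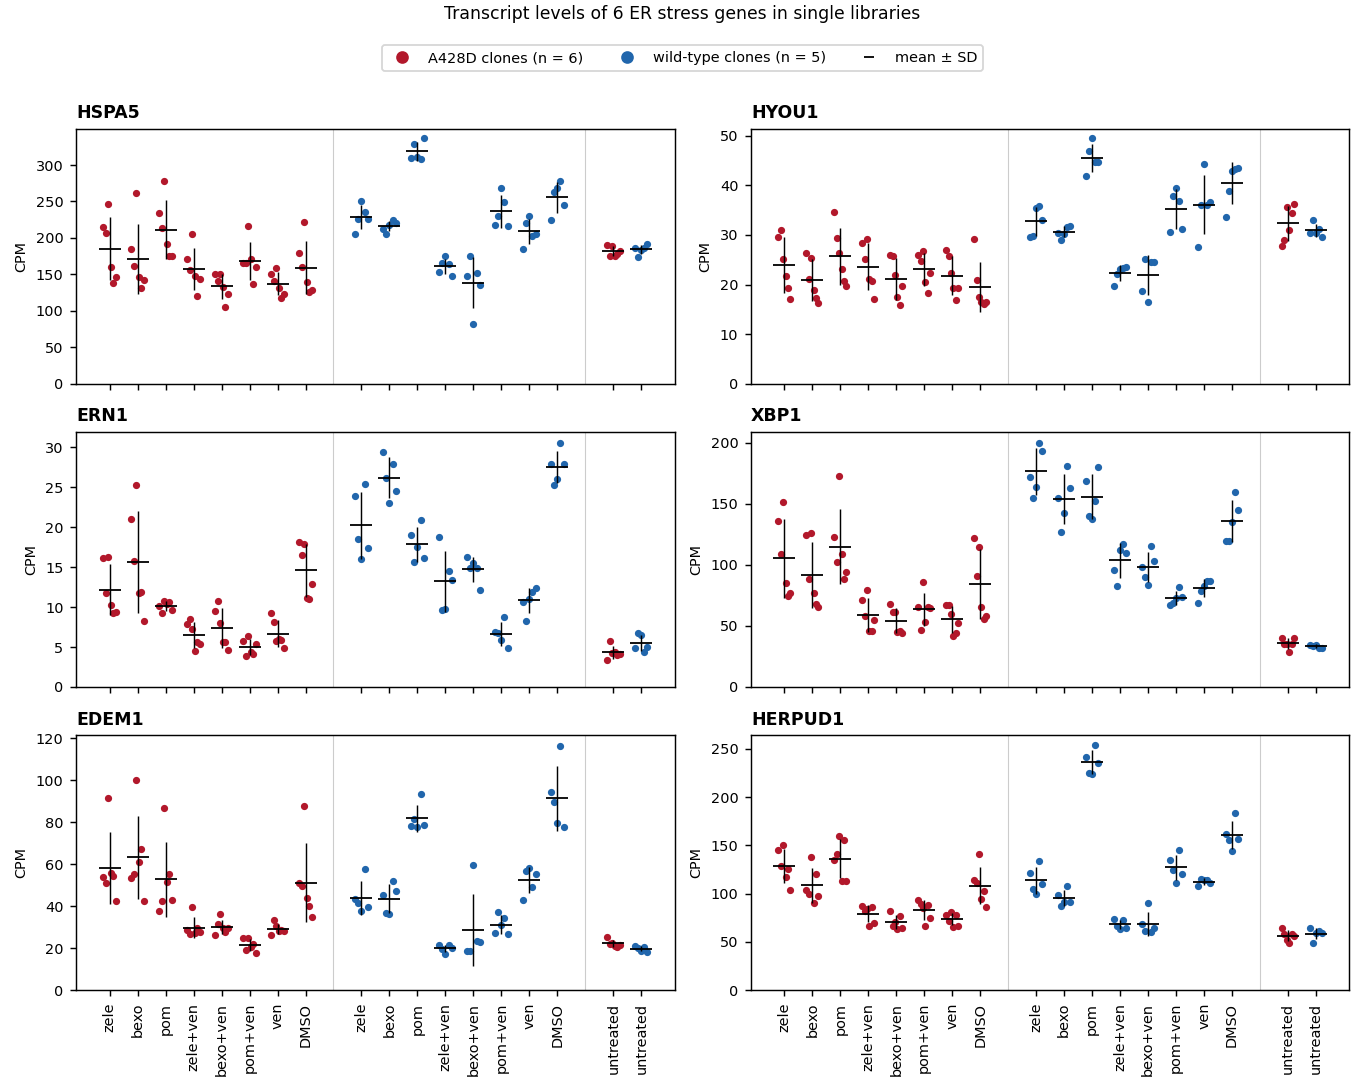
Scaled CPM of HSPA5, HYOU1, ERN1, XBP1, EDEM1 and HERPUD1 in every library of A428D clones (red) and wild-type clones (blue), by treatment, with the mean and SD of each group; the untreated set, scaled apart, is at the right. ERN1 under DMSO spans 11.01 to 18.2 CPM in A428D clones and 25.3 to 30.5 CPM in wild-type clones.

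Adding a degrader to venetoclax lowered further members in wild-type clones. Against venetoclax alone, zelebrudomide with venetoclax lowered 11 and raised 2, against 12.1% and 9.76% of all genes (19 and 6 with the clone block). EDEM1 (-1.38 ± 0.21, adjusted p = 8.04e-07), TXNDC5 (-0.92 ± 0.15), HERPUD1 (-0.72 ± 0.11), HYOU1 (-0.70 ± 0.15), KDELR2 (-0.41 ± 0.09), MANF (-0.43 ± 0.15), DNAJB11 (-0.40 ± 0.12) and PDIA4 (-0.37 ± 0.13) were lower. DERL3 (0.85 ± 0.20) and TXNDC11 (0.51 ± 0.13) were higher. TXNDC5, higher with venetoclax alone than with DMSO, had 7.16, 7.34, 8.13, 8.44 and 6.54 CPM in the combination, below every library of both. MANF, DNAJB11 and PDIA4 lost their calls without single clones (highest adjusted p 0.145, 0.05135 and 0.123), as did P4HB, CALR and CANX (0.0777, 0.107 and 0.126). The count of 13 was 8 without wild-type clone 2 and 7 without clone 5. Of the plasma cell markers CD38 (1.32 ± 0.42) and MZB1 (0.64 ± 0.19) were higher than with venetoclax alone, and of the B cell markers CD79B was higher (0.59 ± 0.15) and PAX5 lower (-0.50 ± 0.13).

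Bexobrutideg with venetoclax lowered 13 and raised 3, against 8.66% and 7.18% of all genes. With the clone block 21 were lower and 9 higher, and with only these groups 3 were lower. TXNDC5 (-0.81 ± 0.15), HERPUD1 (-0.73 ± 0.11), HYOU1 (-0.70 ± 0.15), MANF (-0.62 ± 0.15), HSPA5 (-0.58 ± 0.14), P4HB (-0.55 ± 0.11), CALR (-0.54 ± 0.10), SDF2L1 (-0.54 ± 0.18) and PDIA6 (-0.42 ± 0.08) were lower in 5 of 5 clones, and TXNDC11 was higher (0.41 ± 0.13). EDEM1 (-0.98 ± 0.21) was lower in 4 of 5 clones and DERL3 (0.77 ± 0.20) higher in 4 of 5. MANF, HSPA5, SDF2L1 and TXNDC11 lost their calls without single clones, with highest adjusted p of 0.087 to 0.327. The plasma cell markers CD38 (1.52 ± 0.40) and PRDM1 (0.48 ± 0.16) were higher than with venetoclax alone.

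Pomalidomide with venetoclax lowered 5 members and raised 1, against 3.73% and 4.96% of all genes (9 and 1 with the clone block). EDEM1 (-0.75 ± 0.20), ERN1 (-0.70 ± 0.21), SEC11C (-0.57 ± 0.17), PDIA4 (-0.46 ± 0.13) and TXNDC5 (-0.39 ± 0.13) were lower and PDIA6 was higher (0.31 ± 0.08). Each lost its call without at least 1 clone, and the count was 2 without wild-type clone 1, 3 without clone 3 or 4, and 1 without clone 5. Of the B cell markers CD22 was lower (-0.65 ± 0.14).

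**Figure D4:**
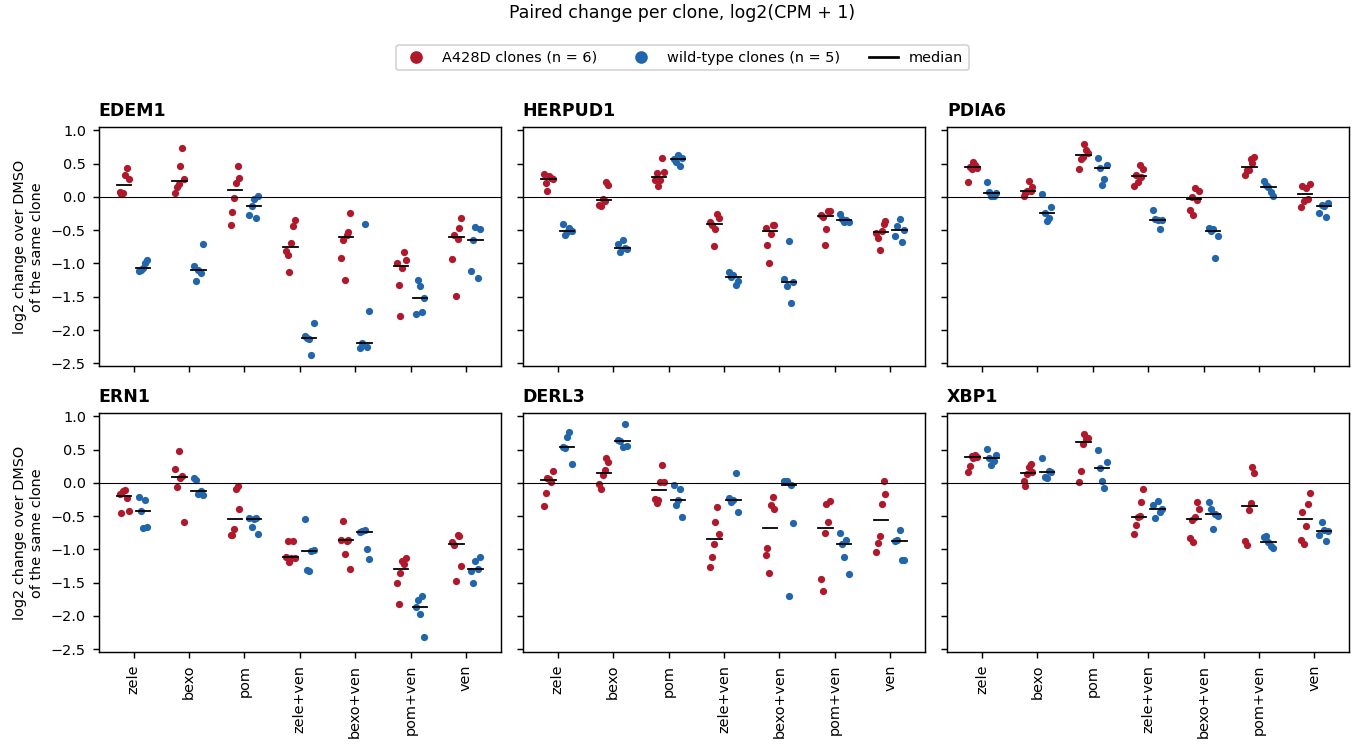
Change of log2(CPM + 1) over the DMSO library of the same clone for EDEM1, HERPUD1, PDIA6, ERN1, DERL3 and XBP1, with 1 point per A428D clone (red) or wild-type clone (blue) and the median as a bar. For EDEM1 with zelebrudomide the A428D clones lie between 0.04 and 0.44 and the wild-type clones between -1.11 and -0.95.

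The distance between the genotypes varied with the treatment, as a description over the same 88 libraries. The median of the members' A428D minus wild-type difference in mean log2(CPM + 1) was -0.38 with zelebrudomide, -0.33 with bexobrutideg, -0.43 with pomalidomide, -0.10 and -0.14 with venetoclax plus zelebrudomide or bexobrutideg, -0.31 with venetoclax plus pomalidomide, -0.35 with venetoclax and -0.58 with DMSO. Over all genes it lay between -0.01 and 0.02. These values share the clones. With DMSO 42 of 43 members were lower in A428D clones, against 50.8% of all genes. With zelebrudomide and venetoclax 32 of 43 were lower, against 48% of all genes.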

How the data were processed

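Per the labels' protocols, cells were cultured and treated as described and RNA was sequenced from transcript 3′ ends, in 88 libraries of 24 h treatments and 12 untreated libraries. The authors deposited 1 table of estimated counts per gene, in which 8.75% of values were not whole. Per the submitters' processing notes, the tools were STAR 2.7.11, Subread 2.1.1, featureCounts, edgeR, SAMtools 1.22.1, fastp 0.24.0, FastQC 0.12.1 and MultiQC 1.32, and no source used here gives their order or the strand setting.

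Here the estimated counts were rounded, which changed the total by 0.0216%, and the 92 spike-ins, which took up to 0.00098% of counts, were dropped. Of 78894 genes, 36134 have no symbol. edgeR 4.0.16 in R 4.3.3 was run with TMM scaling, filterByExpr (minimum count 10, minimum total 15) and robust quasi-likelihood fits, and genes were called at a Benjamini-Hochberg adjusted p under 0.05 over all genes tested. Genotypes were compared in the DMSO and in the untreated libraries, and treatments, their differences between genotypes and drug pairs in 1 fit of 88 libraries, over 29 comparisons in all. Levels are TMM-scaled CPM, scaled apart for the 24 h and the untreated set. Alternatives were DESeq2 1.42.0, RLE scaling, no filter, only the groups compared, the fit of all 24 h libraries, no libraries under 3000000 reads, and leaving out each clone. The scripts were tested on simulated data.

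Libraries of 1 clone are paired by the clone named in the labels. Over 500 genes, deviations from the group mean correlated between libraries of the same clone with a median r of 0.618 (0.037 to 0.916 over 308 pairs), against -0.181 between different clones of a genotype. Deviations cancel out within a group, so a positive value for the same clone brings a negative one between clones. The second value is thus no independent baseline. A clone with the same number in the other genotype is a different clone. P-values measure the spread between clones, each grown once per condition. The main fit of 88 libraries had no term for the clone, so its p-values do not use the pairing. The fit with the clone as a block was run as an alternative.

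The 43 members and the other lists were chosen with earlier results of these data known. Named are up to 12 called members of largest change per genotype comparison, up to 10 per treatment that moved one way in every clone, up to 8 per difference between genotypes, up to 4 of each further list, and HSPA5, XBP1, ERN1 and ATF6 throughout. TXNDC5 and other members outside that rule were named after their values were seen.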

Additional observations from a re-analysis of the deposited data

Results flagged for a closer look

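In 9 of 63 groups of 5 or 6 clones examined, 1 library of a member stood apart from the rest of its group by Dixon's criterion, which chance meets in about 1 in 20 groups. EDEM1 gave 5 of these: A428D clone 3 had 87.5 CPM under DMSO (other clones 35.1 to 50.9), 91.5 CPM with zelebrudomide (others 42.6 to 55.9) and 39.5 CPM with zelebrudomide and venetoclax (others 26.8 to 29.4), untreated A428D clone 1 had 25.5 CPM (others 20.6 to 22.4), and wild-type clone 4 had 57.8 CPM with zelebrudomide (others 37.5 to 43.2). DERL3 stood high in wild-type clone 4 as well, at 43.5 CPM with zelebrudomide (others 27.5 to 31.6) and 28.0 CPM with zelebrudomide and venetoclax (others 15.2 to 17.8). HYOU1 was high in A428D clone 1 under DMSO (29.1 CPM, others 16.1 to 20.9), and TXNDC5 was low in wild-type clone 1 with venetoclax (10.1 CPM, others 14.97 to 15.8).

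Responses that differed between the genotypes in the test of the difference, given as the log2 change in A428D clones minus that in wild-type clones, were those of EDEM1 (1.24) and HERPUD1 (0.745) with zelebrudomide and of EDEM1 (1.38) and HERPUD1 (0.758) with bexobrutideg. With zelebrudomide and venetoclax they were those of EDEM1 (1.40), HYOU1 (1.14), TXNDC5 (0.857), MANF (0.805), HERPUD1 (0.781), DNAJB11 (0.661), PDIA6 (0.661) and HSPA5 (0.646). With bexobrutideg and venetoclax they were those of EDEM1 (1.01), HYOU1 (0.981), TXNDC5 (0.686), HERPUD1 (0.625), P4HB (0.604), DNAJB11 (0.591), SEC61A1 (0.581) and PDIA6 (0.546). All these differences subtract the same DMSO libraries that gave the genotype result under DMSO.

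The genotype difference under DMSO minus that in untreated cultures passed the test for HYOU1 (-1.10), EDEM1 (-0.994), SEC24D (-0.897), SDF2L1 (-0.841), DNAJB11 (-0.722), PDIA4 (-0.68), CREB3L2 (-0.649), HSPA5 (-0.646), HSP90B1 (-0.638), MANF (-0.628), EDEM3 (-0.61) and PPIB (-0.58). Among these, only HYOU1, DNAJB11 and PPIB kept their calls whichever clone was left out. Exposure to DMSO and the library set cannot be told apart in this comparison.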

How the results depend on the processing

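No called named gene changed sign under the alternatives run, but 2 balances of calls turned. For pomalidomide in wild-type clones, with 2 members higher and 4 lower, they were 9 and 6 with the replicate block, 10 and 6 with only the groups compared and 2 and 1 without wild-type clone 5. For pomalidomide with venetoclax against venetoclax alone, with 1 higher and 5 lower, they were 1 and 0 without that clone. Without A428D clone 3, uncalled changes of ATF6 with 3 single compounds and of ERN1 with bexobrutideg in A428D clones crossed 0, reaching -0.04. With the clone as replicate block the number of members called was, in A428D clones, 7 for zelebrudomide, 19 for pomalidomide, 23 for venetoclax and 26 for bexobrutideg with venetoclax, and in wild-type clones 12, 13 and 15 for zelebrudomide, bexobrutideg and pomalidomide. The block gave, for the differences between genotypes, 11 with zelebrudomide, 9 with bexobrutideg, 1 with venetoclax, and 22, 18 and 3 with venetoclax plus zelebrudomide, bexobrutideg and pomalidomide. Against venetoclax alone it gave 25, 30 and 10 for the combinations in that order, 4 for zelebrudomide against bexobrutideg and 16 for zelebrudomide against pomalidomide. In the comparison of DMSO with untreated cultures it gave 27. No share of all genes is given for the block.

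With only the groups compared in the fit, the counts were 4 for pomalidomide in A428D clones, 11, 9 and 16 for zelebrudomide, bexobrutideg and pomalidomide and 16 for bexobrutideg with venetoclax in wild-type clones, 0 for the genotype difference with bexobrutideg and venetoclax, 24 and 3 for zelebrudomide or bexobrutideg added to venetoclax, and 1 and 15 for zelebrudomide against bexobrutideg or pomalidomide. DESeq2 gave 1 for zelebrudomide against bexobrutideg. Without libraries under 3000000 reads the counts were 14 for pomalidomide in A428D clones and 1 for zelebrudomide against bexobrutideg.

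Leaving out 1 clone at a time gave 5 to 8 members for pomalidomide and 9 to 16 for bexobrutideg with venetoclax in A428D clones, and 2 to 4 for zelebrudomide and 3 to 5 for pomalidomide in wild-type clones. It gave 7 to 15 and 3 to 12 for the genotype differences with venetoclax plus zelebrudomide or bexobrutideg, 7 to 12 and 1 to 4 for zelebrudomide or pomalidomide added to venetoclax, 3 to 7 for zelebrudomide against pomalidomide, 3 to 8 for the genotypes untreated and 4 to 25 for DMSO against untreated cultures. Of 221 single-gene results, DESeq2 kept 218 on the same side of the threshold, RLE scaling 217 and no filter 203. The cause was not tested. The shallowest library holds 1477939 reads, and genes of low count are measured less precisely there.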
